A study of Mus musculus with 72 samples.

Results

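Blood from male C57BL/6 mice was profiled on Agilent mouse gene expression arrays 1, 3 and 7 days after a neutron dose of 0.25 Gy or after a sham exposure, to follow how the response to this dose changed over the week. The time course used 33 of the 72 arrays of the series, namely the 17 arrays labelled as 0.25 Gy neutrons on days 1, 3 and 7 and the 16 sham control arrays of the same days. Each array held blood RNA of 1 mouse, with 6 irradiated and 5 control mice on day 1, 6 and 5 on day 3, and 5 and 6 on day 7. The controls were placed in the same holders without the beam, and all mice were of the same strain and sex, with no gene altered. The neutron beam also carried gamma rays, so a part of each exposure was not from neutrons. Blood was taken by cardiac puncture and globin RNA was reduced before labelling. The study's methods describe days 1 and 7, so for day 3 the strain, the sham holders and the globin reduction are not given in the sources used here, while the labels give sex and cardiac puncture for all 3 days. The sources used here do not say whether the mice of a group were irradiated together, so p-values measure the spread between these mice only.

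Ionizing radiation breaks DNA and activates the transcription factor p53, which raises genes that stop the cell cycle, such as Cdkn1a, and genes that lead to cell death. In blood, B lymphocytes are among the most radiation-sensitive cells. Red cells have no nucleus, and the erythroid RNA found in blood comes mostly from reticulocytes, the youngest red cells, whose numbers follow the output of the bone marrow. Genes of heme synthesis, of the red cell membrane and of the ubiquitin system that clears organelles are all active in these cells.

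Levels below are log2 intensities relative to the median of the detected probes of the same array, so a level of 0 is that of a typical detected probe and a difference of 1 is a 2-fold difference. Blood markers were present on all 33 arrays, with 22 to 24 of 24 B cell genes, 25 to 27 of 27 T cell genes, 18 of 18 monocyte genes and 22 of 22 platelet genes well above background. Transcripts of other tissues were present too. The mean level of 21 hepatocyte genes ran from 0.01 to 6.39 in the day 1 controls and from 1.65 to 8.55 in the day 1 irradiated mice. Among the day 3 mice it ran from -2.69 to 5.99 in the controls and from 4.39 to 7.48 in the irradiated mice, so it moved with the group, and on day 7 from -3.26 to -0.91 and from -2.2 to 1.29. The mean of 3 tested heart muscle genes reached 3.53 among the day 7 controls, where controls 2 and 5 stood apart, against -0.65 at most in the irradiated mice of that day. The mean of 4 detected lung genes reached 2.05 in day 7 control 5. The irradiated arrays of day 7 were dim, with median spot intensities of 15.8 to 28 (26.5 for irradiated mouse 5 of day 3) against 32.2 to 50.5 in their controls, and 49.5% to 58.2% of spots well above background against 54.3% to 63.9%. Arrays lay on 10 slides, of which 3 held both groups, and 4 of the 6 day 3 irradiated arrays were scanned on later dates than the day 3 controls. The part of these differences in the results below was not tested beyond the values given.

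**Figure D1:**
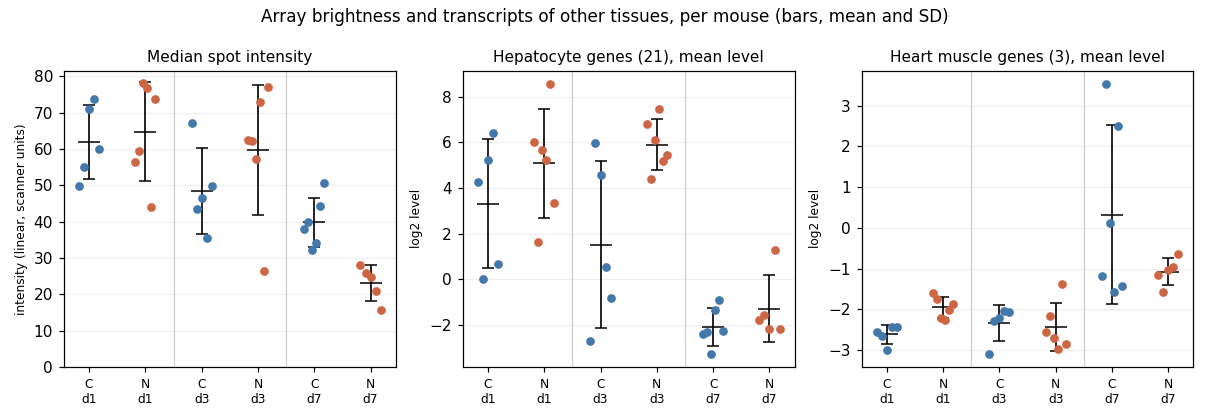
Median spot intensity (left, linear scanner units), mean log2 level of 21 hepatocyte genes (middle) and of 3 heart muscle genes (right) for each mouse, with points for mice and bars for the mean and SD of each group (C, sham controls; N, 0.25 Gy neutrons; d, day). The day 7 irradiated arrays lie between 15.8 and 28, below all their controls, and the hepatocyte genes of the day 3 irradiated mice lie between 4.39 and 7.48.

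The effect of 0.25 Gy, the irradiated minus the control mean of the same day, was tested for 7342 genes in a single limma fit of all 33 arrays, where called means p below 0.001 together with a false discovery rate below 5%. On day 1, 133 genes were called (1.81% of those tested), 26 higher (0.354%) and 107 lower (1.46%). On day 3, 230 genes were called (3.13%), 116 higher (1.58%) and 114 lower (1.55%). On day 7, 100 genes were called (1.36%), of which 97 were higher (1.32%) and 3 lower (0.0409%). The median difference over all tested genes was 0.23, 0.11 and 0.16 on the 3 days, and it was 0.01, -0.09 and -0.02 when arrays were centred on all probes, so list medians below are to be read against it. With that centring, 17 of the 184 genes called on day 1 and 59 of the 270 called on day 3 were higher. With the 75th percentile as the centre, 79 of the 244 called on day 3 were higher, and with quantile normalization 54 of 239. Against the spike-in controls, the median difference on day 7 was -1.13 and all 5958 called genes were lower. After normexp background correction, 290 of the 312 genes called on day 7 were lower and 22 higher. The study itself reported that the genes changed on day 7 after neutrons were nearly all lower, and its counts for this dose and day had that direction. The main fit here, with 97 of 100 called genes higher on day 7, had the opposite direction. The cause of this difference was not tested.

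The change of the effect between days was tested in the same fit. From day 1 to day 3 no gene was called by limma, although 650 genes had an unadjusted p below 0.05 and 48 of the 52 genes with p below 0.001 changed upward. From day 3 to day 7, 234 genes were called (3.19%), 229 upward (3.12%) and 5 downward (0.0681%). From day 1 to day 7, 163 genes were called (2.22%), 141 upward (1.92%) and 22 downward (0.3%). A joint F test of any change over the 3 days called 201 genes (2.74%), of which 141 were well above background on all arrays. Days 1 and 3, which share no arrays, had 24 called genes lower on both days (18% of the day 1 calls and 10.4% of the day 3 calls), 4 higher on both and none in opposite directions. Among the genes of known name called on both days were Psrc1, Dglucy, Plcb1 and Phlda3 (higher) and Foxp1, Siglech, Stap1 and Ddx5 (lower). No gene was called in the same direction on day 7 and on an earlier day, and 3 were called in opposite directions on days 3 and 7.

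**Figure D2:**
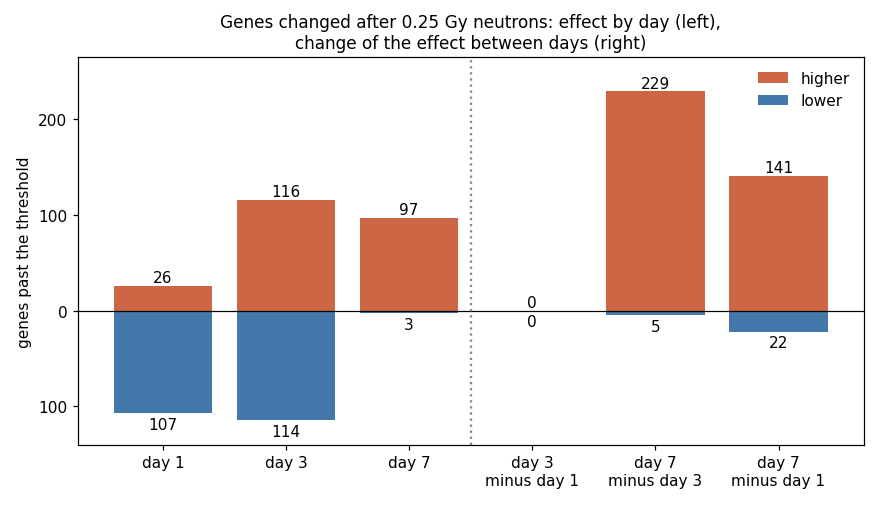
Number of genes past the threshold, drawn upward for higher and downward for lower, for the effect of 0.25 Gy neutrons on each day (left) and for the change of that effect between days (right). The lower calls number 107 on day 1, 114 on day 3 and 3 on day 7.

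These counts rested on few mice. The day 1 count was 12, 13, 36 and 19 without control 1, 2, 3 or 5 of that day, and 22, 60, 251, 64 and 70 without irradiated mouse 1, 2, 3, 5 or 6. Leaving out any of 8 mice of other days (controls 2, 3 and 4 and irradiated mouse 1 of day 3, controls 1 and 3 and irradiated mice 3 and 5 of day 7) gave 73 to 88. The day 3 count was 4, 356 and 9 without control 1, 2 or 5 of that day, 149 and 4 without irradiated mouse 5 or 6, and 508 without irradiated mouse 5 of day 1. The day 7 count was 199, 26, 19, 35 and 24 without control 2, 3, 4, 5 or 6, and 39, 21, 14 and 2 without irradiated mouse 2, 3, 4 or 5. It was 206 without irradiated mouse 5 of day 3, and 47 to 66 without controls 2 or 4 or irradiated mice 1 to 4 of day 1, or controls 2, 3 or 4 or irradiated mouse 3 of day 3. The count from day 3 to day 7 was 153 without control 5 of day 3, 152 without irradiated mouse 5 of day 7 and within 1.5 times the full count without any other mouse. From day 1 to day 7 it was 9, 88 and 7 without control 1, 2 or 5 and 101 and 91 without irradiated mouse 1 or 4 of day 1, and 66 and 36 without control 4 or 5 and 18, 88 and 8 without irradiated mouse 2, 3 or 5 of day 7. The F test called 108, 66 and 36 genes without control 4, irradiated mouse 2 or irradiated mouse 5 of day 7. From day 1 to day 3, 35 genes were called without irradiated mouse 6 of day 1 and 59 without irradiated mouse 1 of day 3, and 1 gene without control 3 or 4 of day 1 or irradiated mouse 5 of day 3. Of the 104 calls of single genes and comparisons chosen by the naming rule, 26 were made in all 33 fits that left out a mouse, 62 were lost in 1 to 16 of them and 16 in more.

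With slide as a fixed block only the slides that held both groups bear on an effect, 2 controls and 2 irradiated mice on day 1, 1 and 2 on day 3, and 2 and 2 on day 7. That fit called 0, 3 and 1 genes on the 3 days, with 633, 823 and 941 at an unadjusted p below 0.05, and as a random block slide gave 19, 3 and 28. Blocking by scan date left no call on day 3 (493 at an unadjusted p below 0.05), and the differences within shared slides are therefore given beside the genes below. The changes between days fell too. With slide as a fixed block limma called 0 genes from day 3 to day 7, from day 1 to day 7 and in the F test (851, 1153 and 928 at an unadjusted p below 0.05), and with scan date as a block 4 from day 3 to day 7. From day 3 to day 7 it called 3 with the replicate number as a block, 0 with spike-in centring (6462 at an unadjusted p below 0.05) and 1 after normexp background correction.

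Of 35 p53 target genes, 30 were detected and 9 varied enough to be tested. Of these 9, 2 were called higher on day 1 and 1 on day 3, none was called on day 7, and 1 was called for a downward change from day 1 to day 7. Over all tested genes 0.354% were called higher on day 1, 1.58% on day 3 and 0.3% downward from day 1 to day 7. The list median was 0.83 on day 1, 0.66 on day 3 and -0.04 on day 7. The day 1 median was -0.31 after quantile normalization and -0.08 within the shared slide. It was 0.15 without irradiated mouse 5, whose hepatocyte level was the highest of its group, and -0.04 with the hepatocyte level as a covariate. The day 3 median was -0.2 against the spike-in controls and -0.22 within the shared slide. Over the 30 detected members the medians were 0.06, 0.05 and -0.06.

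Cdkn1a, which encodes the cell cycle inhibitor p21, gave the largest difference of the list on day 1. Its level was -4.13, -2.83, -3.8, -2.8 and -3.66 in the day 1 controls and from -1.75 to 0.32 (median -1.35) in the irradiated mice. Every irradiated mouse of day 1 was above every control, as was so for 1.06% of the tested genes. On day 3 the controls were at -2.05, -3.42, -3.64, -3.72 and -1.33 and the irradiated mice from -1.9 to -0.5 (median -1.67). On day 7 the controls ran from -3.17 to -1.65 (median -2.84) and the irradiated mice were at -3.09, -3.75, -3.35, -1.25 and -2.69. On both later days the groups of Cdkn1a overlapped. The difference was 2.48 ± 0.46 (SE; 5.56-fold, adjusted p = 0.005) on day 1, 1.4 ± 0.46 (adjusted p = 0.0513) on day 3 and -0.13 ± 0.46 (adjusted p = 0.923) on day 7. The change from day 1 to day 7, -2.61 ± 0.65 (adjusted p = 0.0324), passed the threshold, and it missed it without control 1 or 5 of day 1, control 5 of day 7 or irradiated mouse 2, 3 or 5 of day 7 (adjusted p up to 0.0769). The day 1 call was made in all 33 fits that left out a mouse. After normexp background correction the Cdkn1a difference of day 1 was 0.91, without a call, and the change from day 1 to day 7 was 0.19, in the opposite direction. Within the shared slides the differences were 1.82, -0.35 and -1.31.

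Phlda3, a p53 target that restrains Akt signalling, was called on 2 days. Its level was 0.9, 1.71, 0.89, 1.32 and 0.74 in the day 1 controls and 1.65 to 2.64 (median 2.25) in the irradiated mice, with 5 of 6 above all controls. In the day 3 groups it was 1.31, 0.62, 0.54, 0.76 and 0.82 in the controls and 1.28 to 2.22 (median 1.65) in the irradiated mice, again with 5 of 6 above all controls. Among the day 7 mice it was 0.69 to 1.54 (median 1.22) in the controls and 1.5, 0.6, 1.39, 1.5 and 1.61 in the irradiated mice, which overlapped. The differences were 1.07 ± 0.24 (2.1-fold, adjusted p = 0.0243), 0.89 ± 0.24 (1.86-fold, adjusted p = 0.0305) and 0.13 ± 0.24 (adjusted p = 0.839), and 1.38, 0.83 and 0.06 within the shared slides. The day 1 call was lost in 5 of the 33 fits without a mouse (controls 1, 3 or 5 or irradiated mice 1 or 2 of that day) and the day 3 call in 14. No change of the Phlda3 effect between days was called.

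Other p53 targets were measured but varied too little for the main test. Over all detected genes, Ccng1, a p53-induced cyclin, differed by 0.68 ± 0.16 on day 1 and passed the threshold there (adjusted p = 0.0406), with 0.39 ± 0.16 on day 3 and -0.23 ± 0.16 on day 7. Bbc3, which encodes the death factor Puma, differed by 0.61 ± 0.16 (adjusted p = 0.0519) on day 1 and Aen, a nuclease of apoptosis, by 0.6 ± 0.18 (adjusted p = 0.0809), and neither passed. Mdm2, the ubiquitin ligase that degrades p53, differed by 0.06 ± 0.18, Bax by 0.26 ± 0.16 and Trp53inp1 by 0.02 ± 0.22 on day 1. The receptor gene Eda2r was not detected. Among tested members Plk2 differed by 0.83 ± 0.48, 0.66 ± 0.48 and -1.13 ± 0.48 on the 3 days and Fbxw7 by -0.6 ± 0.22, -0.56 ± 0.22 and 0.33 ± 0.22, none of them called, and a second probe of Fbxw7 by -0.33 ± 0.19, -0.46 ± 0.19 and -0.23 ± 0.19. DNA repair and damage signalling genes (7 of 40 tested) had no call, with medians of 0, 0.06 and -0.2. Over the 36 detected members the medians were -0.14, -0.24 and -0.18, with 7, 9 and 7 of them above 0. The medians over all detected genes were 0, -0.06 and -0.02. Rad50 (-0.71 ± 0.26 on days 1 and 3), Rad51ap1 and Xrcc4 had the lowest F test p among the tested members. A brighter probe of Rad50 differed by -0.09 ± 0.14 and -0.28 ± 0.14 on those days.

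**Figure D3:**
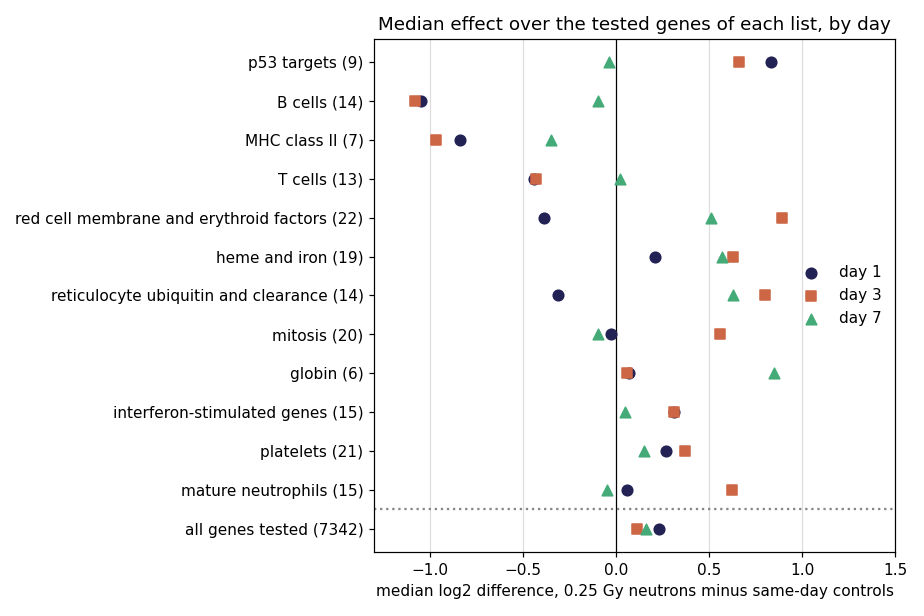
Median log2 difference (0.25 Gy neutrons minus same-day controls) over the tested genes of each list on day 1 (circles), day 3 (squares) and day 7 (triangles), with the number of tested genes in parentheses and all genes in the bottom row. The B cell list lies at -1.05 and -1.08 on days 1 and 3 and at -0.1 on day 7. The red cell membrane and reticulocyte lists pass from below 0 on day 1 to above 0 on days 3 and 7. When arrays are centred on the spike-in controls, the day 7 medians of these lists are below 0, at -1.23 for B cells.

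B cell genes were lower on days 1 and 3, and near the controls on day 7 except against the spike-in controls. Of the 14 tested members of 26 listed, all 14 had an unadjusted p below 0.05 and a difference below 0 on day 1 and again on day 3, and none had on day 7. Over all tested genes 11.3%, 12.8% and 2.52% did so on the 3 days. Those past the call threshold were 2 on day 1 and 2 on day 3, while 1.46% and 1.55% of all tested genes were called lower. The medians were -1.05, -1.08 and -0.1, with the sign on days 1 and 3 held under every other scaling. Against the spike-in controls the day 7 median was -1.23, beside -1.13 over all tested genes. Within the shared slides they were -0.51, -0.68 and 0.38, and -0.64 on day 3 with scan date as a block. Without irradiated mouse 5 of day 1, whose mean B cell level of 0.46 lay far below the next lowest of its group, the day 1 median was -0.68. In bulk blood, fewer B cells and less RNA per B cell cannot be told apart. The study reported no significant change in cell death or in the make-up of white blood cells after irradiation. It also reported total blood counts in the normal range, but its text gives no separate count of B cells. The upward change from day 3 to day 7, with a median of 1.01, had no member called.

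Ebf1, a transcription factor that sets B cell identity, stood at 1.67, 1.41, 1.5, 0.91 and 1.75 in the day 1 controls and at -1.64 to 1.13 (median 0.54) in the irradiated mice. On day 3 it stood at 1.29, 1.32, 1.41, 1.61 and 1.46 in the controls and at -0.32 to 0.79 (median 0.42) in the irradiated mice, all 6 below every control (so for 4.47% of the tested genes), against 5 of 6 on day 1. In the day 7 groups it stood at 0.38 to 1.12 (median 0.64) in the controls and at 0.75, 1.42, 0.77, 0.6 and 0.53 in the irradiated mice, 1 of which was above every control. The difference was -1.17 ± 0.31 (adjusted p = 0.0464) on day 1 and called, -1.12 ± 0.31 (adjusted p = 0.0334) on day 3 with its unadjusted p above the limit, and 0.13 ± 0.31 on day 7. The day 1 call was lost in 23 of 33 fits without a mouse. Bank1, an adaptor of the B cell receptor, was the other called on day 1 (-1.12 ± 0.29, lost in 20 of 33 fits). On day 3 the called members were Cd72, a B cell co-receptor (-1.22 ± 0.28, adjusted p = 0.0193), and Fcer2a, the low-affinity IgE receptor CD23 (-1.3 ± 0.34, adjusted p = 0.0277). Ms4a1, which encodes CD20, differed by -1.02 ± 0.31, -1.06 ± 0.31 and 0.11 ± 0.31 and Vpreb3 by -1.03 ± 0.39, -1.31 ± 0.39 and 0.54 ± 0.39, with no call.

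Genes of MHC class II, through which B cells and other cells present antigen, followed a similar course. Of 10 listed genes 7 were tested, with medians of -0.84, -0.97 and -0.35, and within the shared slides -0.68, -0.54 and -0.01. The day 7 median was -1.43 against the spike-in controls. Ciita, the master regulator of the class II genes, was called on day 1 (-1.25 ± 0.3, adjusted p = 0.0326) with every irradiated mouse below every control (so for 3.06% of the tested genes), while its 2 other detected probes differed by -1.43 ± 0.29 and -0.16 ± 0.25. Cd74, the invariant chain, was called on day 3. Its level was 6.29, 6.41, 6.28, 5.71 and 6.36 in the day 1 controls and 4.3 to 5.91 (median 5.63) in the irradiated mice. Among the day 3 mice it was 6.14, 5.81, 5.86, 5.91 and 6.77 in the controls and 4.29 to 5.52 (median 5.17) in the irradiated mice, all 6 below every control (so for 4.47% of the tested genes). On day 7 it was 5.34 to 6.11 (median 5.89) in the controls and 5.47, 5.39, 5.5, 5.25 and 5.56 in the irradiated mice, 1 of them below all controls. The differences were -0.8 ± 0.26, -1.04 ± 0.26 (2.06-fold lower, adjusted p = 0.024) and -0.38 ± 0.26, of which only that of day 3 passed, and it missed without controls 1 or 5 or irradiated mice 3 or 6 of that day (adjusted p up to 0.0902). H2-DMb2 and H2-Ob, which edit peptide loading, differed by -1.01 ± 0.36 and -0.86 ± 0.37 on day 1 without passing.

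T cell genes showed a smaller difference with no call. The medians of 13 tested members were -0.44, -0.43 and 0.02, and within the shared slides 0.1, 0.03 and 0.05. The day 7 median was -1.21 against the spike-in controls. Without irradiated mouse 5 of day 1, which had the lowest T cell level of its group (0.24), the day 1 median was -0.1. Ccr7, the lymph node homing receptor of naive T cells, differed by -0.87 ± 0.34, -0.64 ± 0.34 and -0.09 ± 0.34. Cd8b1, a chain of the CD8 co-receptor, differed by -0.2 ± 0.33, -0.43 ± 0.33 and 0.57 ± 0.33. NK and cytotoxic cell genes (6 tested) had medians of 0.15, 0.36 and 0.09 and no call, with Gzmb, Klrg1 and Klra8 differing by 0.43 ± 0.35, 0.15 ± 0.4 and -0.04 ± 0.35 on day 1.

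Erythroid genes differed in the opposite direction on the later days. Over all tested genes 64.8%, 55.4% and 61.9% had a difference above 0 on days 1, 3 and 7. Of 22 tested genes of the red cell membrane and erythroid factors, 16 had a difference below 0 on day 1, with a median of -0.39 and no call. On day 3 all 22 had a difference above 0, with a median of 0.89, and 6 were called higher (1.58% of all tested genes were). On day 7, 21 of 22 were above 0, with a median of 0.51 and no call, but the day 7 median was -0.62 against the spike-in controls. Within the shared slides the medians were -0.39, 0.67 and 0.65, and on day 3 0.51 with scan date as a block. The 6 genes called on day 3 were Ahsp, Rhd, Tmod1, Epb42, Kel and Add2, of which Tmod1, Epb42 and Add2 encode parts of the membrane skeleton and Rhd and Kel encode blood group antigens. Their differences ran from 1.44 ± 0.34 for Kel to 1.84 ± 0.39 for Ahsp, and none of the 6 differed past the threshold on day 1 or day 7. Ank1, a further part of the skeleton, differed by -1.02 ± 0.4 on day 1, 1.02 ± 0.4 on day 3 and 0.54 ± 0.4 on day 7, with no call.

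Ahsp, the chaperone of alpha globin, had the lowest F test p of this list (adjusted p = 0.0327). Its level was 4.9, 4.64, 4.32, 6.22 and 5.88 in the day 1 controls and 3.57 to 5.82 (median 4.66) in the irradiated mice, which overlapped. In the day 3 groups it was 4.62, 5.23, 4.53, 5.04 and 4.6 in the controls and 5.5 to 7.43 (median 6.92) in the irradiated mice, all 6 above every control (so for 1.73% of the tested genes). Among the day 7 mice it was 5.06 to 5.74 (median 5.41) in the controls and 5.28, 6.64, 6.63, 6.62 and 6.63 in the irradiated mice, 4 of 5 above every control. The differences were -0.51 ± 0.39 (adjusted p = 0.427), 1.84 ± 0.39 (3.58-fold, adjusted p = 0.0159) and 0.93 ± 0.39 (adjusted p = 0.2). The day 3 call was lost without controls 1 or 5 or irradiated mouse 6 of day 3 (adjusted p up to 0.0568). Within the shared slides the differences were -1, 1.4 and 0.72.

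Heme and iron genes and genes of the reticulocyte ubiquitin system had medians above 0 on days 3 and 7, though not on day 7 against the spike-in controls. The 19 tested heme and iron genes had medians of 0.21, 0.63 and 0.57, with 3 called higher on day 3, 1 on day 7 and 1 upward from day 1 to day 7. Over all tested genes 1.58%, 1.32% and 1.92% were so called. The day 3 median was 0.12 with the hepatocyte level as a covariate, and the day 7 median was -0.59 against the spike-in controls. The day 3 calls included Urod and Uros, enzymes of heme synthesis, at 1.06 ± 0.26 and 1.03 ± 0.23. Tfrc, the transferrin receptor that brings iron into red cell precursors, was the day 7 call (1.09 ± 0.29, adjusted p = 0.0482), at 0.18 ± 0.29 on day 1 and 0.07 ± 0.29 on day 3, while its second detected probe differed by -0.24 ± 0.15, 0.7 ± 0.15 and 0.32 ± 0.15 on the 3 days. The call was lost in 23 of 33 fits without a mouse, and the difference was -0.02 against the spike-in controls. Slc25a37, the mitochondrial iron importer mitoferrin, changed by 1.47 ± 0.4 from day 1 to day 7 (adjusted p = 0.0425), from -0.48 ± 0.28 to 0.99 ± 0.28, and the call was lost in 25 of 33 fits. Glrx5, of iron-sulfur cluster assembly, differed by 1 ± 0.3 on day 3 without passing.

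The 14 tested genes of the reticulocyte ubiquitin and clearance list had medians of -0.31, 0.8 and 0.63, within the shared slides -0.52, 0.77 and 0.59, and against the spike-in controls -0.55 on day 7. On day 3 all 14 were above 0 and 2 were called higher, Trim10 (1.64 ± 0.35, adjusted p = 0.0159) and Trim58 (1.27 ± 0.33, adjusted p = 0.0277), both ubiquitin ligases of late red cell maturation. From day 1 to day 7, 2 were called upward, the ubiquitin-conjugating enzymes Ube2h (1.72 ± 0.45, adjusted p = 0.0381) and Ube2o (1.48 ± 0.39, adjusted p = 0.0375), and these calls were lost in 13 and 14 of 33 fits without a mouse. The F test called 2, Ube2h and Wdr26. Over all tested genes 1.58% were called higher on day 3, 1.92% upward from day 1 to day 7 and 2.74% by the F test. Globin genes differed by day and by gene. The 6 tested had medians of 0.07, 0.06 and 0.85, and the embryonic genes Hbb-bh1 and Hbb-y were called higher on day 3 (1.47 ± 0.32 and 1.36 ± 0.29). The adult genes Hbb-b1 and Hbb-b2 were called higher on day 7 (1.23 ± 0.32 and 0.92 ± 0.22), and these calls were lost in 24 and 9 of 33 fits without a mouse. Globin RNA was reduced before labelling, adult and embryonic beta globin genes are alike in sequence, and the differences of Hbb-b1 and Hbb-b2 were 0.12 and -0.19 against the spike-in controls.

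Wdr26, a subunit of a ubiquitin ligase of maturing red cells, is among 14 genes that the study listed as lower and then higher. The study listed these genes for its higher neutron dose and for x-rays, not for the lower neutron dose followed here. The study chose them on samples that include the day 1 and day 7 controls used here, so their direction on these days is not independent evidence. The 14 genes had medians of -0.51 on day 1 and 0.81 on day 7, and 0.91 on day 3. All 14 were below 0 on day 1 and above 0 on day 7, except that the day 7 median was -0.3 against the spike-in controls. On single days only Anp32e was called (day 7, 1.11 ± 0.28, and -0.0038 against the spike-in controls), while its second probe differed by 0.04 ± 0.2 there. By the F test 3 of the 14 were called, against 2.74% of all tested genes. With scan date as a block the day 3 median was 0.37. Of these genes, from day 1 to day 7 Anp32e, a histone chaperone (1.73 ± 0.39), Bsdc1 (1.47 ± 0.4) and the cell cycle transcription factor E2f2 (1.4 ± 0.38) were called, and the calls were lost in 4, 23 and 21 of 33 fits without a mouse, that of Anp32e on day 7 in 17. From day 1 to day 3 none was.

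The level of Wdr26 was 4.03, 3.62, 3.6, 4.49 and 4.44 in the day 1 controls and 2.75 to 3.88 (median 3.38) in the irradiated mice, 4 of 6 below every control. On day 3 it was 3.36, 3.81, 3.64, 4.07 and 3.39 in the controls and 3.48 to 5.78 (median 4.81) in the irradiated mice, 5 of 6 above every control. In the day 7 groups it was 3.07 to 4.25 (median 3.97) in the controls and 3.95, 5.18, 5.21, 4.59 and 4.64 in the irradiated mice, 4 of 5 above every control. The differences were -0.72 ± 0.33, 1.1 ± 0.33 and 0.86 ± 0.33, none called alone, and the F test of change passed (adjusted p = 0.0327). Within the shared slides they were -0.83, 0.65 and 0.53. Of the cell cycle genes in the same set, Ube2c differed by -0.09 ± 0.3, 1 ± 0.3 and 0.8 ± 0.3, Fzr1 by -0.47 ± 0.29, 0.9 ± 0.29 and 0.66 ± 0.29, and Ccna2 by -0.34 ± 0.32, 1.09 ± 0.32 and 0.62 ± 0.32. Cdc25b differed by -0.43 ± 0.31, 0.73 ± 0.31 and 0.81 ± 0.31 and Nusap1 by -0.62 ± 0.31, 0.99 ± 0.31 and 0.72 ± 0.31. These 5 genes had no call.

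**Figure D4:**
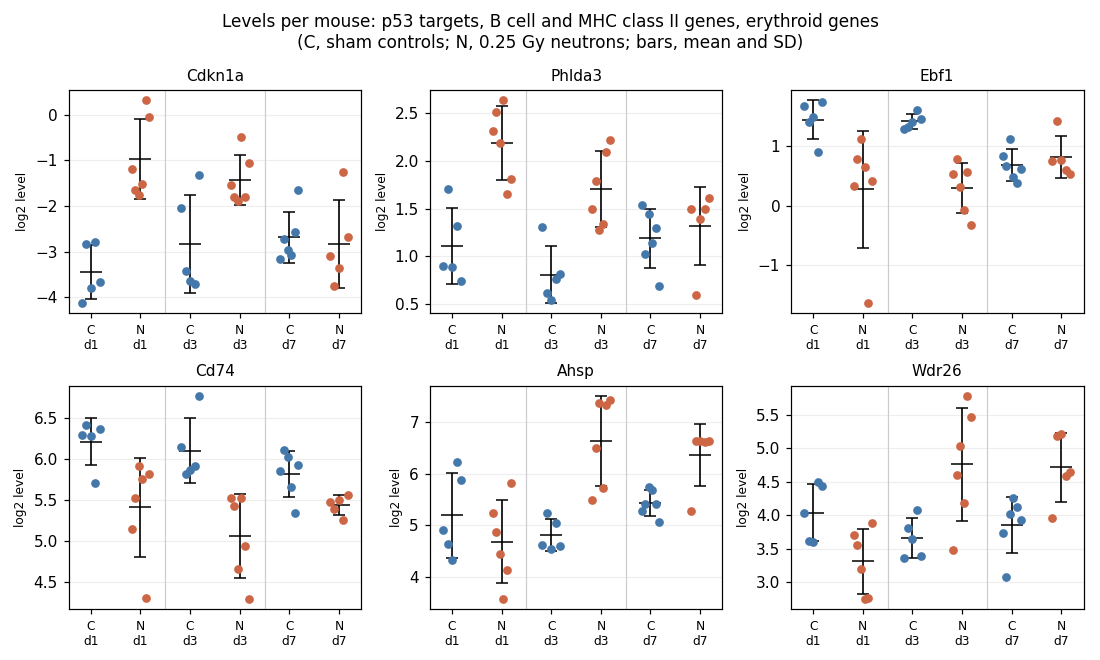
Log2 level, relative to the array's median detected probe, of 2 p53 targets (Cdkn1a, Phlda3), a B cell and an MHC class II gene (Ebf1, Cd74) and 2 erythroid genes (Ahsp, Wdr26) in each mouse (C, sham controls; N, 0.25 Gy neutrons; d, day), with bars for the mean and SD. Cdkn1a separates the groups on day 1, Ebf1, Cd74 and Ahsp on day 3, and the groups of Cdkn1a and Ebf1 overlap on day 7.

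Genes of mitosis were tested for 20 of 42 members, with medians of -0.03, 0.56 and -0.1. On day 3, 19 of 20 were above 0 and Ccnb2, a mitotic cyclin, was called higher (1.09 ± 0.27, 2.13-fold, adjusted p = 0.0221). The day 3 median was -0.2 within the shared slide and 0.2 with scan date as a block, where Ccnb2 differed by 0.73 within the slide. DNA replication genes (11 tested) had medians of 0.39, 0.53 and -0.04 and no call, with Mcm10 at 2.16 ± 0.79 and Tk1 at 0.57 ± 0.35 on day 3. With the hepatocyte level as a covariate the day 3 median was 0. Over the 31 detected replication genes the medians were -0.1, -0.15 and -0.26, beside 0, -0.06 and -0.02 over all detected genes. The 3 tested E2f and pocket protein genes had medians of -0.31, 0.59 and 0.63. Besides E2f2 they were Tfdp2 (-0.31 ± 0.31, 0.82 ± 0.31 and 0.63 ± 0.31) and E2f7 (0.15 ± 0.26, -0.49 ± 0.26 and 0.45 ± 0.26).

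The 3 largest called rises of day 1 were those of Cxcl13, a chemokine that attracts B cells (4.05 ± 1.02), Slc4a7, a bicarbonate transporter (3.34 ± 0.91), and the macrophage scavenger receptor Marco (3.32 ± 0.82). Cxcl13 was well above background on 2 of the 5 day 1 control arrays and on 2 of the 5 irradiated arrays of day 7, so the size of its differences rests in part on values at background. With such spots set to missing its day 1 difference was 3.55 and its change from day 1 to day 7 -4.27, and after normexp background correction they were 0.79 and -0.82, none of them called. On day 3 these 3 genes differed by 1.32 ± 1.02, 1.67 ± 0.91 and 1.36 ± 0.82, and on day 7 by -2.69 ± 1.02, -2.21 ± 0.91 and -1.54 ± 0.82, none called. The change from day 1 to day 7 was called for Cxcl13 (-6.74 ± 1.44), Slc4a7 (-5.56 ± 1.29) and Marco (-4.86 ± 1.16), and for Retnla, a secreted product of alternatively activated macrophages (-5.72 ± 1.39). Part of each change lay in the controls, which were higher on day 7. Control levels of Cxcl13 ran from -6.12 to -2.16 on day 1 and from -2.14 to 1.72 on day 7. Those of Slc4a7 ran from 0.17 to 3.13 and from 0.92 to 8.49. Those of Marco ran from -2.74 to -0.83 and from -1.74 to 0.83, and those of Retnla from -3.57 to 1.81 and from 2.29 to 5.74. A second detected probe of Slc4a7 differed by -0.51 ± 0.18 on day 1, so the probes of this gene disagree. The hepatocyte level moved in the same direction on day 1, with a list median of 1.89, and within the shared slide Marco differed by 3.83. The monocyte list (14 tested, 1 called higher on day 1, against 0.354% of all tested genes) had medians of 0.18, 0.3 and 0.02. On day 1 Cd14 was at 1.78 ± 0.71 and Ccr2 at -0.62 ± 0.37. The day 1 call of Marco was lost in 7 of 33 fits without a mouse, that of Cxcl13 in 10 and that of Slc4a7 in 28.

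The largest falls of day 1 were those of 3 genes that are in none of the lists. Ap2b1, a subunit of the adaptor complex of clathrin-coated vesicles, had the largest fall. Its level was 0.16, -0.12, -0.3, -1.58 and -0.3 in the day 1 controls and -4.49 to -3.09 (median -4.22) in the irradiated mice, a gap with no overlap. Every irradiated mouse was below every control on day 1 for 3.06% of the tested genes. Among the day 3 mice it was -1.17, -1.57, -0.98, -0.74 and -0.86 in the controls and -4.73 to -0.35 (median -1.39) in the irradiated mice, where irradiated mouse 5 was as low as the mice of day 1. On day 7 it was -3.27 to -0.08 (median -1.61) in the controls and -0.84, -1.24, -0.95, -1.14 and 0.08 in the irradiated mice, 1 of which was above every control. The differences were -3.66 ± 0.55 (12.7-fold lower, adjusted p = 0.00112), -0.63 ± 0.55 (adjusted p = 0.461) and 0.99 ± 0.55 (adjusted p = 0.307). The change from day 1 to day 7 was 4.65 ± 0.77 (adjusted p = 0.00499). The day 1 call and this change held in all 33 fits without a mouse, and the differences within the shared slides were -3.36, -0.64 and 2.12.

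Arpc3, a subunit of the actin-branching Arp2/3 complex, gave the same pattern at a high level. Its level was 5.69, 5.88, 5.4, 5.12 and 5.39 in the day 1 controls and 1.44 to 4.15 (median 3.68) in the irradiated mice, which did not overlap (so for 3.06% of the tested genes). In the day 3 groups it was 5.83, 4.99, 5.37, 5.62 and 4.95 in the controls and 4.85 to 6.31 (median 5.13) in the irradiated mice, and on day 7 it was 2.9 to 5.41 (median 5.04) in the controls and 5.18, 5.16, 5.17, 5.22 and 5.85 in the irradiated mice. On both later days the groups overlapped. The differences were -2.28 ± 0.4 (4.87-fold lower, adjusted p = 0.0041), 0.03 ± 0.4 and 0.63 ± 0.4, and the change from day 1 to day 7 was 2.92 ± 0.57 (adjusted p = 0.0156). Its 2 other detected probes differed by -1.66 ± 0.34 and -2.1 ± 0.4 on day 1. Dus4l, a tRNA-modifying enzyme, differed by -1.93 ± 0.31 (adjusted p = 0.00126), 0.04 ± 0.31 and 0.6 ± 0.31, with a change of 2.53 ± 0.44 from day 1 to day 7. These calls of Arpc3 and Dus4l held in all 33 fits without a mouse, and within the shared slide the day 1 differences were -1.92 and -1.53.

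Trp53i11, a gene first described as p53-inducible, was lower on both early days. Its level was -1.63, -1.9, -2.19, -3.05 and -2.31 in the day 1 controls and -3.94 to -2.72 (median -3.56) in the irradiated mice, and on day 3 it was -1.55, -1.92, -2.25, -1.67 and -1.88 in the controls and -3.2 to -2.47 (median -2.91) in the irradiated mice. Among the day 7 mice it was -3.45 to -3.02 (median -3.35) in the controls and -2.65, -2.53, -2.8, -2.48 and -2.73 in the irradiated mice. On day 1, 5 of 6 irradiated mice were below every control. The irradiated mice of day 3 were all below their controls (so for 4.47% of the tested genes) and those of day 7 all above theirs (5.05%). The controls of day 7 were below those of day 3 and below those of day 1 other than control 4. The differences were -1.24 ± 0.22 (adjusted p = 0.0041), -1.03 ± 0.22 (adjusted p = 0.0159) and 0.65 ± 0.22 (adjusted p = 0.114). The change was 1.67 ± 0.32 from day 3 to day 7 and 1.89 ± 0.32 from day 1 to day 7 (adjusted p = 0.00419 and 0.00499), but the latter was -0.29 against the spike-in controls and -0.24 after normexp background correction. Another probe of Trp53i11, with a mean level of 2.85, differed by -0.77 ± 0.24, -0.95 ± 0.24 and 0.06 ± 0.24.

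Several of the genes with the lowest F test p were lower on day 3 and higher on day 7. Fbxl20, an F-box protein of ubiquitin ligases, had the lowest adjusted p together with the unannotated B230398E01Rik (0.000384 for both). The level of Fbxl20 was 1.06, 0.89, 0.08, 1.06 and 0.98 in the day 1 controls and 0.22 to 0.66 (median 0.37) in the irradiated mice. On day 3 it was 1.46, 1.16, 1.21, 1.32 and 1.58 in the controls and -0.08 to 0.72 (median 0.48) in the irradiated mice, and on day 7 it was -0.21 to 1.24 (median 0.17) in the controls and 1.21, 1.69, 1.57, 1.71 and 2.23 in the irradiated mice. All day 3 irradiated mice were below all controls (so for 4.47% of the tested genes), and on day 7 4 of 5 were above all controls, of which control 2 was the highest. The differences were -0.39 ± 0.23, -0.93 ± 0.23 (adjusted p = 0.0223) and 1.38 ± 0.23 (2.61-fold, adjusted p = 0.00366), and the change from day 3 to day 7 was 2.31 ± 0.32 (adjusted p = 0.000167). A second probe of Fbxl20 differed by -0.48 ± 0.22, -0.42 ± 0.22 and -0.18 ± 0.22, so the day 7 rise was seen by only 1 of its 2 detected probes.

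Bgn, which encodes the matrix proteoglycan biglycan, had the same form. Its level was -1.33, -1.12, -1.88, -0.4 and -0.58 in the day 1 controls and -1.89 to -0.55 (median -1.03) in the irradiated mice. Among the day 3 mice it was -0.29, -0.3, -0.59, -0.07 and 0 in the controls and -2.13 to -0.87 (median -1.58) in the irradiated mice, and on day 7 it was -1.73 to 0.2 (median -1.42) in the controls and -0.19, 0.5, 0.45, 0.55 and 1.31 in the irradiated mice. The day 3 groups did not overlap (so for 4.47% of the tested genes) and the day 7 groups met at control 2, which was also high in heart muscle transcripts. The differences were -0.04 ± 0.34, -1.26 ± 0.34 (adjusted p = 0.0297) and 1.74 ± 0.34 (adjusted p = 0.00766). From day 3 to day 7 the changes were 3 ± 0.48 for Bgn, 2.63 ± 0.43 for Mapk1ip1l, 2.54 ± 0.42 for the olfactory receptor Olfr122, 3.02 ± 0.53 for Xntrpc, 3.8 ± 0.66 for Mroh2a and 3.53 ± 0.61 for Prm2, a sperm protamine. These 6 had day 7 differences of 1.53 to 2.43 and within the shared slide of 1.31 to 3.09. The day 7 irradiated arrays were dimmer than all their controls, and the part of this in these differences was not tested. Of 2 other detected probes of Mapk1ip1l, 1 differed by -0.01 ± 0.12 and 1 by -0.22 ± 0.14 on day 7, and the other probe of Xntrpc by -0.35 ± 0.28.

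The largest changes from day 3 to day 7 were those of Fam13c (6.98 ± 1.34), Wsb2 (6.91 ± 1.61) and Hydin, a gene of motile cilia (4.62 ± 1.01), and the same genes other than Wsb2 were among the largest rises of day 7, with Spint2, a protease inhibitor (3.05 ± 0.66). Part of the first 3 changes lay in the controls. Control levels of Fam13c ran from 1.04 to 2.1 on day 3 and from -3.89 to 1.23 on day 7. Those of Wsb2 ran from 1.09 to 6.1 and from -1.34 to 0.69, and those of Hydin from -2.47 to -1.22 and from -5.39 to -2.41. Irradiated mouse 1 of day 7 lay within the day 7 control range for Fam13c, Wsb2 and Hydin (-1.55, -0.86 and -4.32). Spint2 was at 0.93 and -2.42 in controls 4 and 5 of day 7 and at 2.53 to 3.75 in the others. It was at 4.43 to 5.77 in the irradiated mice, so the size of its rise rests in part on those low controls. Wsb2 was not called on day 7 itself (3.8 ± 1.14, adjusted p = 0.0825), and its second probe differed by -0.56 ± 0.21 there, as did that of Spint2 by -0.27 ± 0.24. Downward changes were called for Efna1 (adjusted p = 0.0311), the creatine transporter Slc6a8 (adjusted p = 0.0214) and Tmem242 (-1.35 ± 0.37, adjusted p = 0.0301). Efna1 and Slc6a8 were not well above background on any day 7 irradiated array, so no size is given for their changes. On that day Slc6a8 was at least 2.33-fold lower and Efna1 at least 1.32-fold lower than the mean of the controls, without a call. The Slc6a8 level was -0.74 and 0.24 in controls 2 and 5 of day 7, which also held heart muscle transcripts, and -4.07 to -3.28 in the others, which overlapped the irradiated mice (-4.68 to -3.66). Efna1 was at -0.76 in control 5 and at -4.49 to -2.79 in the others, against -6.14 to -3.91 in the irradiated mice. The calls of Efna1 and Tmem242 were lost in 22 and 23 of 33 fits without a mouse. The change of Tmem242 was 0.47 after normexp background correction, and a brighter probe of it differed by 0.33 ± 0.15 on day 3 and 0.09 ± 0.15 on day 7. The 3 genes called lower on day 7 were Myl2, a heart muscle myosin (-3.84 ± 1), Tha1, a threonine aldolase, and Kbtbd7 (-0.89 ± 0.22), with calls lost in 23, 6 and 17 of 33 fits without a mouse, and after normexp background correction Tha1 and Kbtbd7 differed in the opposite direction (1.1 and 1.13). Myl2 was high in day 7 controls 2 and 5, and without the arrays with heart or lung transcripts the median of the 3 heart muscle genes on day 7 was 0.48 in place of -1.05. Tha1 was not well above background on any irradiated array of day 7, which makes it at least 1.88-fold lower (adjusted p = 0.0294).

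**Figure D5:**
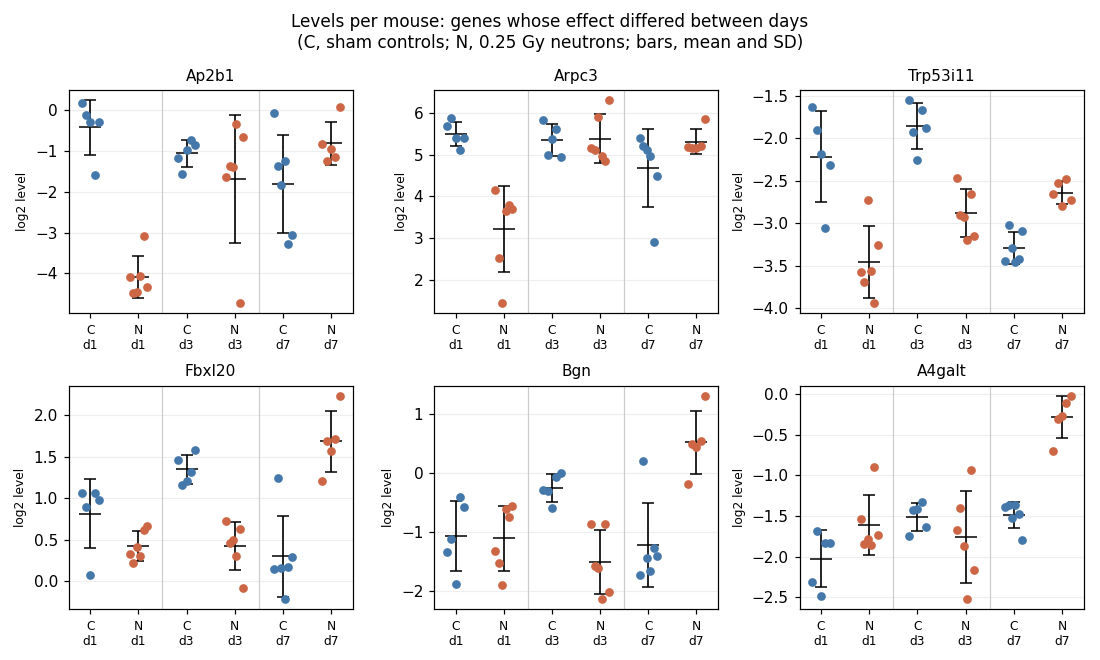
Log2 level, relative to the array's median detected probe, of 6 genes whose effect changed between days, in each mouse (C, sham controls; N, 0.25 Gy neutrons; d, day), with bars for the mean and SD. Ap2b1 and Arpc3 separate the groups on day 1, and Fbxl20, Bgn and A4galt have their higher irradiated levels on day 7.

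A further set of genes was described whatever its result. A4galt, which makes a glycolipid antigen of red cells and other cells, was called on day 7 (1.2 ± 0.23, 2.3-fold, adjusted p = 0.00766), but its difference was 0.09 against the spike-in controls. Its level was -1.79 to -1.37 (median -1.43) in the day 7 controls and -0.7, -0.3, -0.27, -0.11 and -0.02 in the irradiated mice, with no overlap (so for 5.05% of the tested genes). On day 1 it was -2.31, -1.68, -2.49, -1.83 and -1.83 in the controls and -1.86 to -0.9 (median -1.76) in the irradiated mice, and on day 3 it was -1.75, -1.42, -1.41, -1.33 and -1.64 in the controls and -2.52 to -0.93 (median -1.77) in the irradiated mice. On days 1 and 3 the groups of A4galt overlapped, with differences of 0.42 ± 0.23 and -0.25 ± 0.23, and the change from day 3 to day 7 was 1.45 ± 0.33 (adjusted p = 0.0145). B230398E01Rik differed by 0.07 ± 0.31, -1.12 ± 0.31 and 2.22 ± 0.31, the day 7 value being called. Pla2g2d, a phospholipase, differed by -1.22 ± 0.39, -1.12 ± 0.39 and -0.72 ± 0.39, Slfn4, an interferon-responsive gene of myeloid cells, by 1.12 ± 0.49, 1.03 ± 0.49 and -0.33 ± 0.49, and F9, a clotting factor made in liver, by 0.91 ± 0.39, 0.61 ± 0.39 and 1.18 ± 0.39. Gstt1, a glutathione transferase of liver, differed by 1.47 ± 0.92, 2.69 ± 0.92 and -0.53 ± 0.92. These last 4 genes had no call.

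Hepatocyte genes were higher in the day 3 irradiated mice by the largest list median. All 21 tested members were above 0 on days 1 and 3 and 18 on day 7, with medians of 1.89, 4.95 and 0.9, and 1, 20 and 1 had an unadjusted p below 0.05 on the 3 days, against 9.62%, 15.3% and 16.8% of all tested genes that did and were higher. Plg, which encodes plasminogen, was called (5.16 ± 1.41, adjusted p = 0.031), a call lost in 23 of 33 fits without a mouse. The liver genes Cyp2a12 (5.51 ± 1.52) and Tmprss6 (5.28 ± 1.43) were the other largest rises of that day, with calls lost in 24 and 9 fits, and Alb, albumin, differed by 6.04 ± 1.73 without passing. Apoa2, Apoc3 and Cyp3a11 differed by 3.6 ± 1.14, 6 ± 1.78 and 4.09 ± 1.17 on day 3. A second detected probe of Apoa2 differed by 5.52 ± 1.68 and that of Apoc3 by -0.01 ± 0.28 on that day. The largest falls of day 3 were those of Slc29a4 (-1.45 ± 0.36), Ivns1abp (-1.44 ± 0.35) and Slc4a11 (-1.42 ± 0.28). For Slc4a11 every irradiated mouse was below every control (so for 4.47% of the tested genes), while a second probe of Ivns1abp differed by -0.28 ± 0.16. When the hepatocyte level was added as a covariate, limma called no gene on day 3 (975 at an unadjusted p below 0.05), and the day 3 medians were -0.7 for B cell genes, 1.05 for red cell membrane genes and 0.86 for the reticulocyte list. Without the arrays with heart or lung transcripts, 47 of the 192 genes called on day 3 were higher.

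The remaining lists held few calls. Interferon-stimulated genes (15 tested) had medians of 0.31, 0.31 and 0.05, and Ifit3 was called higher on day 1 (0.94 ± 0.25, adjusted p = 0.0477), which was lost in 24 of 33 fits without a mouse. Isg15 and Rsad2 differed by -0.8 ± 0.33 and -0.36 ± 0.35 on day 1 and by 0.83 ± 0.33 and 1.02 ± 0.35 on day 3, so members differed in direction. Mature neutrophil genes (15 tested) had medians of 0.06, 0.62 and -0.05, and neutrophil granule genes (8 tested) of -0.22, 0.47 and 0.08, with Elane at 2.29 ± 0.75, Mpo at -0.9 ± 0.46 and Chil3 at -0.35 ± 0.52 on day 1 and Cxcr2 at -1 ± 0.48, Mxd1 at -0.07 ± 0.3 and Trem1 at 0.1 ± 0.39. Lung epithelium genes (2 tested) had medians of 0.23, -0.17 and -0.47, and heart muscle genes (3 tested) of 0.87, -0.12 and -1.05. Platelet genes (21 tested) had medians of 0.27, 0.37 and 0.15, with Selp at 0.99 ± 0.45, F13a1 at -0.03 ± 0.36 and Itgb3 at 0.12 ± 0.33 on day 1. Immediate early and heat shock genes (10 tested) had medians of -0.13, 0.12 and 0.04, with Fos at 0.97 ± 0.46, Jun at -0.46 ± 0.31 and Jund at -0.03 ± 0.26 on day 3. Cytosolic ribosomal protein genes (6 of 77 tested) had medians of 0.07, -0.12 and 0.16, and Rplp1, Rps24 and Rps25 differed by 0.66 ± 0.25, -0.66 ± 0.28 and -0.71 ± 0.3 on day 7, while other probes of Rps24 differed by -0.03 ± 0.18, 0.47 ± 0.16 and 0.51 ± 0.18, that of Rplp1 by -0.3 ± 0.2 and that of Rps25 by -0.15 ± 0.14. None of these was called except Ifit3 and the heart muscle gene Myl2.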

How the data were processed

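Agilent mouse arrays of 33 mice were read from the scanner output that was deposited for each array. The authors extracted the spot intensity with Feature Extraction 12.0.2, which corrects the background, so each value is a processed Cy3 intensity on a linear scale, with no normalization between arrays. Control spots (1377 of 44397) were left out, repeated spots were averaged, and on the log2 scale the median over detected probes was subtracted from every array. Probes (39429) were named through their accessions where RefSeq (GRCm38.p6) held them (28330, of which 1403 names changed) and by the file's own name otherwise. A probe was detected if under 25% of its spots over the arrays were flagged as outliers or not well above background (20214 probes). It was tested if at least 20% of arrays lay over 1.5-fold from its median (8125). The brightest probe stood for a gene (7342 genes). Group means were fitted with limma 3.58.1 in R 4.3.3 over 6 groups (27 residual degrees of freedom), and p-values were adjusted by Benjamini-Hochberg over all tested genes. Missing values (425, in 279 genes) were left out, and filled by the group mean where a block or covariate was fitted. The fit was checked on simulated data.

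The members, the 24 gene lists and the tests were chosen with earlier results of these data known. Genes were named by a fixed rule: the 10 lowest F test p among called genes, the 3 largest called rises and falls of each comparison, the 3 lowest F test p and any call of each list, and a set of genes fixed by name. Probes without a gene symbol were passed over. Some genes that the rule names are not reported here. Psrc1, Dglucy, Plcb1, Foxp1, Siglech, Stap1, Ddx5 and Alb were named after their values were seen. The number of arrays limits the precision. Alternatives were other centrings, background correction, filters, blocks, a hepatocyte covariate and leaving out arrays. The authors' value table, whose rows hold the same arrays, and the other 39 arrays were not used.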

Additional observations from a re-analysis of the deposited data

Results flagged for a closer look

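A mouse far from the others of its group was found in 26 of 150 groups of values, where chance gives about 1 in 20. The values below are log2 levels, for lists the mean over the detected genes, tested or not. Day 3 control mouse 1 stood apart at 0.32 for p53 targets and -3.09 for heart muscle. Day 1 control mouse 4 stood apart at 2.58 for B cells, 3.33 for heme and iron, 5.71 for Cd74 and -1.58 for Ap2b1. Day 1 irradiated mouse 5 stood apart at 0.46 for B cells, 1.95 for MHC class II, 0.24 for T cells, -2.01 for mitosis, -1.64 for Ebf1, -3.09 for Ap2b1 and -0.9 for A4galt. Day 3 irradiated mouse 4 stood apart at 1.51 for T cells. Day 7 irradiated mouse 4 stood apart at 1.29 for hepatocytes. Day 7 control mouse 5 stood apart at 2.05 for lung epithelium and 2.9 for Arpc3. Day 7 irradiated mouse 2 stood apart at 0.6 for Phlda3 and 1.42 for Ebf1. Day 7 irradiated mouse 1 stood apart at 5.28 for Ahsp. Day 3 irradiated mouse 5 stood apart at -4.73 for Ap2b1. Day 7 irradiated mouse 5 stood apart at 5.85 for Arpc3. Day 1 control mouse 3 stood apart at 0.08 for Fbxl20. Day 7 control mouse 2 stood apart at 1.24 for Fbxl20 and 0.2 for Bgn. Day 7 control mouse 6 stood apart at -1.79 for A4galt.

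The effect of 0.25 Gy neutrons differed between days by the test of the difference itself. This held for 234 genes between days 3 and 7, for 163 between days 1 and 7, and for 201 over the 3 days by the F test. With slide as a fixed block the counts were 0, 0 and 0 (851, 1153 and 928 at an unadjusted p below 0.05), and with scan date as a block 4, 199 and 147. The lowest adjusted p of limma's F test were 0.000384 for B230398E01Rik and Fbxl20, 0.00368 for Trp53i11, 0.00406 for Ap2b1, Bgn, Mapk1ip1l, Olfr122, Prm2 and Xntrpc, and 0.00419 for Dus4l. Next were 0.00426 for Mroh2a, 0.00755 for Fam13c, 0.00896 for Arpc3, and 0.0229 for Hydin. Adjusted p values of limma's F test were further 0.0231 for Cxcl13 and Wsb2, 0.0234 for Spint2, 0.0288 for A4galt, Anp32e, Bsdc1 and Slc4a7, and 0.0327 for Ahsp, Kbtbd7 and Wdr26. The highest among the named genes were 0.0335 for Slc6a8 and Ube2h, 0.0336 for Retnla, and 0.0338 for Marco.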

How the results depend on the processing

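Counts of called genes are given for each alternative that moved them over 1.5 times, with limma used throughout. Centring on all probes gave 20 on day 7 and 85 for day 1 to day 7. Spike-in centring gave 3, 0 (2810 at an unadjusted p below 0.05) and 5958 on the 3 days, 0 for day 3 to day 7 (6462), 971 for day 1 to day 7 and 483 in the F test. Normexp correction gave 1, 1 and 312, then 1, 317 and 1. Of those 312 genes of day 7, 22 were higher and 290 lower. Without the detection filter the counts were 34 and 47 on days 1 and 3, then 129, 9 and 45, and without the 1.5-fold filter 471 on day 3 and 306 in the F test. With dim spots set to missing they were 80 and 24 on days 1 and 7, then 34 for day 1 to day 7, 78 in the F test and 1 for day 1 to day 3. With only the arrays of the contrast, limma called 1, 0 (1866) and 1 gene on the 3 days. The hepatocyte covariate gave 32 and 0 (975) on days 1 and 3 and 106 for day 3 to day 7. Slide as a random block (correlation 0.12) gave 19, 3 and 28, then 64 for day 1 to day 7 and 98 in the F test.

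The replicate block, with replicate numbers paired within each day, called 0 genes on days 1, 3 and 7 (1296, 1404 and 860 at an unadjusted p below 0.05), 0 for day 1 to day 7 (1054), 0 in the F test (954) and 3 for day 3 to day 7. The labels do not say that the numbers pair the mice. Of 15 same-numbered pairs 4 correlated above 0.1 (range -0.61 to 0.7), and 1 matched its own number best. With so few arrays per group, these correlations cannot decide whether same-numbered mice were handled together.

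Chosen after seeing the data: slide as a fixed block gave 0 (633), 3 and 1, then 0 for day 3 to day 7 (851), day 1 to day 7 (1153) and the F test (928). Scan date as a block gave 0 on day 3 (493) and 4 for day 3 to day 7. With only the day 3 irradiated arrays scanned with the controls, the counts were 0 (455) on day 3, 204 on day 7 and 4 for day 3 to day 7. Without the arrays with heart or lung transcripts they were 196 on day 7, 374 for day 3 to day 7 and 1 for day 1 to day 3. With only genes well above background on all arrays, no count moved that far.

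Leaving out 1 mouse in turn gave 12 to 251 calls on day 1, 4 to 508 on day 3, 2 to 206 on day 7, 0 to 59 for day 1 to day 3, 152 to 331 for day 3 to day 7, 7 to 236 for day 1 to day 7 and 36 to 299 in the F test. The cause of these shifts was not tested.

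Some of the 104 named calls changed sign under an alternative. With spike-in centring these were Anp32e (-0.0038), Hbb-b2 (-0.19), Mapk1ip1l (-1.33) and Tfrc (-0.02) on day 7, Mapk1ip1l from day 3 and from day 1 to day 7 (-0.98 and -1.2), and Trp53i11 from day 1 to day 7 (-0.29). With normexp correction they were Kbtbd7 (1.13) and Tha1 (1.1) on day 7, Kbtbd7 (1.07) and Tmem242 (0.47) from day 3 to day 7, and Cdkn1a (0.19) and Trp53i11 (-0.24) from day 1 to day 7. Without the 1.5-fold filter Mapk1ip1l, then read from a brighter probe, was at -0.22 on day 7, -0.12 from day 3 and -0.08 from day 1 to day 7.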
